A study of Mus musculus with 20 samples.

Results

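Fibroblasts build the connective tissue around a tumor, and 10 genes of that tissue are described here across 20 microarrays of mouse bladder, bladder tumor and metastasis: Dcn, Lum, Bgn, Fbln1, Postn, Sparc, Pdgfra, Pdgfrb, Fap and Thy1. A gene was taken from the array rows whose platform annotation carries its symbol, and the row with the highest mean was used where a gene had several. Of the 10 genes, 9 have a row that names a single gene, among 30142 genes in all, and the only row of Pdgfra also names Mir7025, so its values are given below but enter no count and no test. The arrays fall into 5 groups: 1 metastasis from a treated mouse, 4 metastases from untreated mice, 3 bladders from treated mice, 7 bladder tumors from untreated mice and 5 control bladders. All mice were FVB/N. Treated mice received CM272 at 5 mg/kg/day for 30 days together with cisplatin (CDDP) at 6 mg/kg once per week. All groups, control bladders included, came from mice with floxed Rb alleles and a p107 deficiency, among other engineered alleles. Tumors were started by an adenovirus carrying Cre recombinase given in the bladder, which the labels do not record for the control bladders, and the promoter that drives Cre in the virus is not stated in them. Where in the body the metastases grew is not stated in the labels used here. Only 1 treated metastasis was measured, which allows no test for that group, and the labels do not say that numbered samples are separate animals, so the p-values cover sample-to-sample spread, which may be technical.

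Decorin (Dcn), lumican (Lum) and biglycan (Bgn) are small leucine-rich proteoglycans that bind collagen fibrils. Decorin and biglycan also bind TGF-beta. Fibulin-1 (Fbln1), periostin (Postn) and SPARC are secreted matrix proteins, and periostin is widely used as a marker of activated stroma. PDGFRA and PDGFRB are receptors for platelet-derived growth factors on fibroblasts and pericytes, FAP is a surface protease of activated fibroblasts, and THY1 is a surface glycoprotein of fibroblasts that mouse T cells carry as well. In whole tissue, fewer fibroblasts and less RNA per fibroblast cannot be told apart.

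The values are log2 expression values, so 1 unit is a doubling, and levels of different genes are not set against each other because each rests on its own probes. Of the 20 arrays, 8 are called near-mean here, namely metastases 3 and 4, tumors 3, 4 and 5, and control bladders 4, 5 and 6. They were set apart by correlation with other arrays, at a limit of 0.2, and not by a measured distance from the mean. After gene means were removed, none of these 8 correlated above 0.14 with any other array, while each of the other 12 had a best partner at 0.33 to 0.61. The 9 genes spanned a median of 2.16 log2 units over those 12 arrays and 0.72 over the 8 near-mean arrays, so results are given with and without the 8. Other genes did not share so large a drop. The median span over all genes was 0.84 in the 12 arrays and 0.72 in the 8. For 1561 odorant, vomeronasal and bitter taste receptor genes it was 1.07 and 1.18. Xist was at 10.8 and 10.9 in control bladders 1 and 2 and at 6.44 or below in the other 18 arrays. Those 2 are also the only control bladders outside the near-mean set. Rb1 group means lay at 5.99 to 6.18 and Rbl1 (p107) group means at 6.41 to 7.50, and the annotation used here does not say whether their probes lie in the deleted parts. Markers of bladder tissue differed widely among the tumors. The mean level of 9 urothelium markers was 5.57 in tumor 6, against 10.2 in tumor 7, and 10 smooth muscle markers averaged 5.43 in tumor 6, against 9.20 in tumor 7. Tumor 2 was low for both lists too, at 5.91 and 5.70, and tumor 1 was at 7.14 and 5.85. The cause was not tested.

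Bgn and Postn shared their highest array, tumor 6, and parted in the treated metastasis, where Bgn was at 10.02 and Postn at 6.36, so a promoter of each is shown. The table held a second Postn window, chr3:54359017-54359316, with no match to any motif searched. The windows shown run from 250 bases before to 50 bases after a RefSeq start on build GRCm38.p6, plus strand. Capitals mark a GC box (GGGCGG) or a TATA box (TATAAA), each searched on both strands.
Bgn, chrX:73483351-73483650: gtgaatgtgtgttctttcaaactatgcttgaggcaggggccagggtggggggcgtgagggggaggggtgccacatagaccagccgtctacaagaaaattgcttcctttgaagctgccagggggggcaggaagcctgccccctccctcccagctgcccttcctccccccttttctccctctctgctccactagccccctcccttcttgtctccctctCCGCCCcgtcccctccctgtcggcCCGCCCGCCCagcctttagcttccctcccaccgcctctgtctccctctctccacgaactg
Postn, chr3:54360857-54361156: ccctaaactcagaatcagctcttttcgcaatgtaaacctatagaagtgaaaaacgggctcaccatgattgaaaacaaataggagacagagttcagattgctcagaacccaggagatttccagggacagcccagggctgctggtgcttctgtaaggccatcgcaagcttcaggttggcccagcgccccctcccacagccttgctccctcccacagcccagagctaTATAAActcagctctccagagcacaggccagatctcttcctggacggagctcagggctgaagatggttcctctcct
The Bgn window held 3 GC boxes, of which the last 2 overlap, and no TATA box. The Postn window shown held 1 TATA box, beginning 26 bases before the start, and no GC box. Of 32851 mouse promoters of this length, 35.7% held a GC box and 13.6% a TATA box, so neither match is rare, and a match is not a measured binding site. Neither window held the AP-1 motif TGANTCA, which 7.81% of the promoters held.

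Decorin was highest in the treated metastasis and lowest in tumor 1. Dcn was at 11.23 in the treated metastasis and at 8.80, 9.98, 8.14 and 8.30 in the metastases. Treated bladders had Dcn values of 7.89, 8.86 and 7.90, the 7 tumors ran from 5.87 over a median of 8.64 to 10.01, and control bladders had 10.01, 9.998, 8.72, 8.76 and 8.76. All groups with more than 1 array overlapped, and the 20 arrays covered 5.36 log2 units, a 41.0-fold range. Control bladders had the highest Dcn mean of the 4 replicated groups, 9.25 ± 0.69 (SD, n = 5), ahead of metastases at 8.81 ± 0.83 (n = 4), tumors at 8.61 ± 1.41 (n = 7) and treated bladders at 8.22 ± 0.56 (n = 3). No step in that order passed its test.

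Lumican followed decorin in its extremes among the tumors. Lum was at 9.51 in the treated metastasis, at 8.27, 8.01, 7.88 and 8.34 in metastases and at 5.74, 8.78 and 7.82 in treated bladders. Tumors ran from 5.13 in tumor 1 over a median of 7.84 to 10.04 in tumor 6, and control bladders had 9.66, 9.19, 7.56, 8.01 and 7.60. The metastases were the tightest group, 8.12 ± 0.22 (SD, n = 4), and lay inside the range of the tumors, 7.65 ± 1.50 (n = 7), and of the control bladders, 8.40 ± 0.96 (n = 5). Treated bladder 1 stood well below the other 2 treated bladders, which gave the group a mean of 7.45 ± 1.55 (n = 3).

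Biglycan peaked in tumor 6 and was next highest in the treated metastasis. Bgn was at 10.02 in the treated metastasis, at 7.81, 8.45, 8.32 and 8.08 in metastases and at 6.91, 8.62 and 7.11 in treated bladders. Tumors ran from 6.03 in tumor 1 over a median of 7.90 to 10.94 in tumor 6, and control bladders had 8.66, 8.47, 7.73, 7.53 and 8.01. Group means were close: 8.17 ± 0.28 in metastases (SD, n = 4), 7.55 ± 0.94 in treated bladders (n = 3), 8.22 ± 1.48 in tumors (n = 7) and 8.08 ± 0.48 in control bladders (n = 5). Tumor 6 exceeded the mean of the other 6 tumors by 3.18 log2 units for Bgn, 2.79 for Lum and 1.64 for Dcn.

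**Figure D1:**
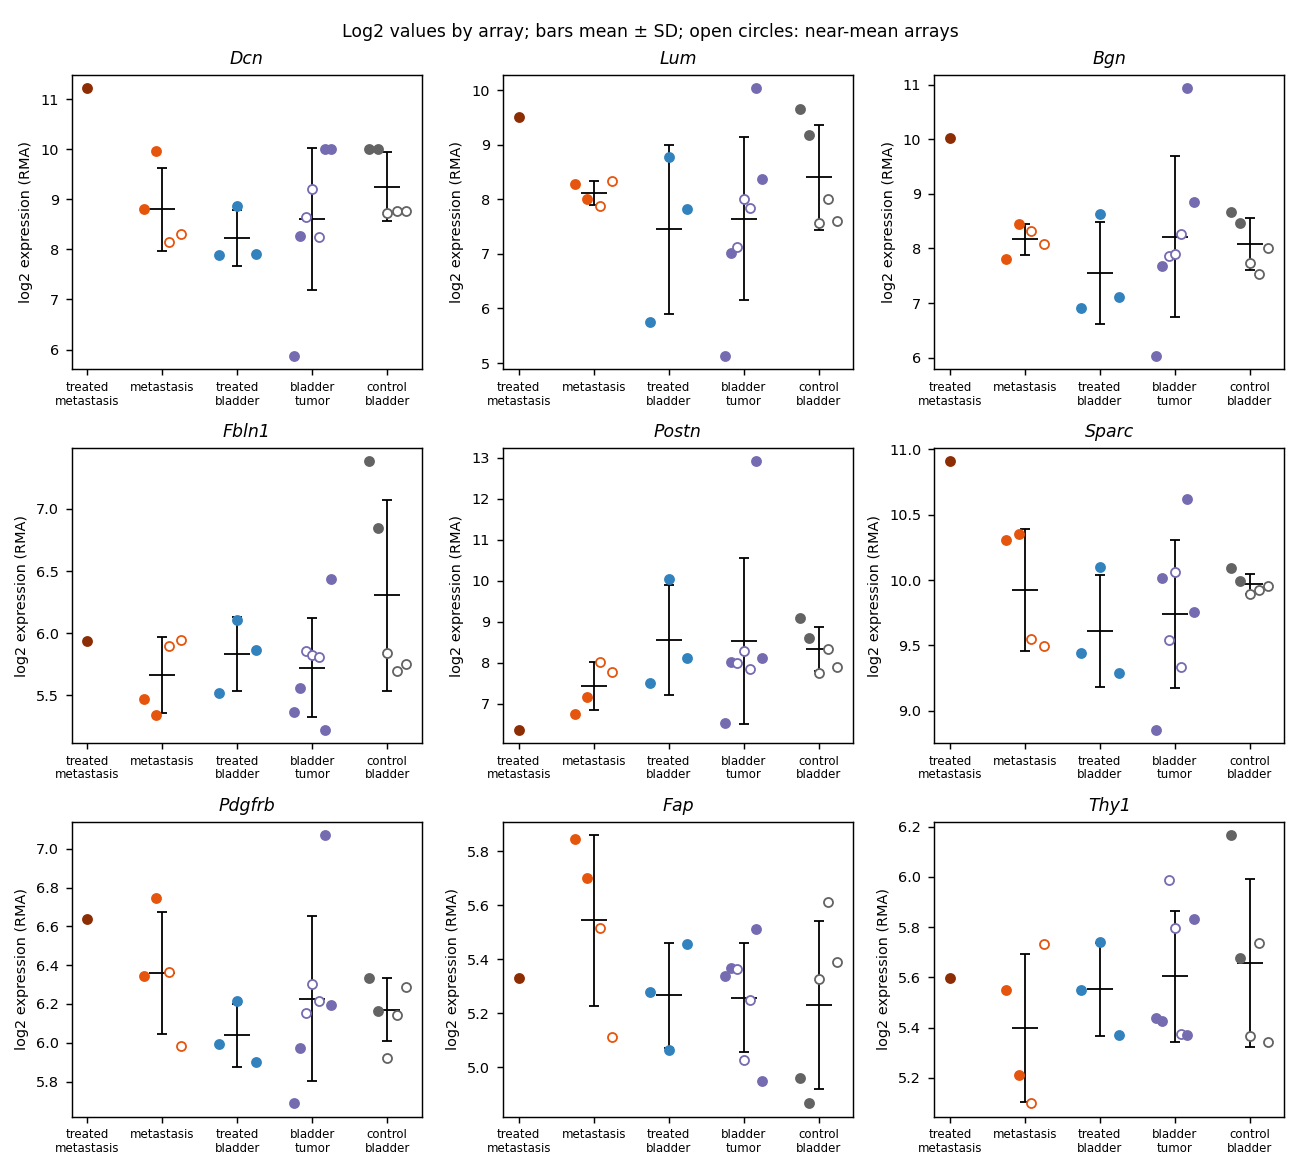
Log2 expression (vertical axis) of the 9 genes in each array, grouped from left to right as treated metastasis, metastasis, treated bladder, bladder tumor and control bladder, with each point an array. The tumors spread widely for Postn, from 6.53 to 12.91, and for Bgn, from 6.03 to 10.94, while Fap and Thy1 covered 0.98 and 1.07 log2 units over all arrays; horizontal lines with bars are mean ± SD and open circles are near-mean arrays.

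Periostin showed the widest range of the 9 genes. Postn was at 6.36 in the treated metastasis and at 6.74, 7.16, 8.02 and 7.78 in metastases. Treated bladders had 7.50, 10.05 and 8.11, tumors ran from 6.53 in tumor 1 over a median of 8.03 to 12.91 in tumor 6, and control bladders had 9.08, 8.60, 7.75, 8.34 and 7.90. The treated metastasis was the lowest of the 20 arrays and tumor 6 the highest, 6.55 log2 units or 93.5-fold apart. Tumor 6 lay 5.11 above the mean of the other 6 tumors, whose own highest value was 8.29. The metastases averaged 7.42 ± 0.58 (SD, n = 4), the treated bladders 8.55 ± 1.33 (n = 3), the tumors 8.53 ± 2.02 (n = 7) and the control bladders 8.33 ± 0.54 (n = 5).

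SPARC, which binds collagen and guides matrix assembly, varied less. Sparc was at 10.91 in the treated metastasis, at 10.30, 10.35, 9.55 and 9.49 in metastases and at 9.44, 10.10 and 9.29 in treated bladders. Tumors ran from 8.86 in tumor 1 over a median of 9.76 to 10.62 in tumor 6, and control bladders had 10.09, 9.99, 9.89, 9.92 and 9.95. The control bladders held within a narrow band, 9.97 ± 0.08 (SD, n = 5), which the range of the other 3 replicated groups enclosed. Those groups averaged 9.92 ± 0.47 in metastases (n = 4), 9.61 ± 0.43 in treated bladders (n = 3) and 9.74 ± 0.57 in tumors (n = 7).

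Fibulin-1 was set apart by a pair of control bladders. Fbln1 was at 5.94 in the treated metastasis, at 5.47, 5.34, 5.90 and 5.95 in metastases and at 5.52, 6.11 and 5.86 in treated bladders. Tumors ran from 5.22 in tumor 6 over a median of 5.81 to 6.43 in tumor 7, and control bladders had 7.38, 6.85, 5.84, 5.70 and 5.75. Control bladders 1 and 2, the arrays with high Xist, were above all 18 others, and control bladders 4, 5 and 6 lay among the tumors. Tumor 6, highest for Bgn, Postn and Lum among the tumors, was the lowest array for Fbln1.

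The PDGF receptors reached their extremes in the same tumors. Pdgfrb was at 6.64 in the treated metastasis, at 6.34, 6.75, 6.36 and 5.98 in metastases and at 5.99, 6.22 and 5.90 in treated bladders. Tumors ran from 5.69 in tumor 1 over a median of 6.19 to 7.07 in tumor 6, and control bladders had 6.34, 6.16, 5.92, 6.14 and 6.29. All groups overlapped, with means of 6.36 ± 0.31 in metastases (SD, n = 4), 6.04 ± 0.16 in treated bladders (n = 3), 6.23 ± 0.42 in tumors (n = 7) and 6.17 ± 0.16 in control bladders (n = 5). The row shared by Pdgfra and Mir7025 was at 7.09 in the treated metastasis, 6.91 to 7.33 in metastases, 6.65 to 7.15 in treated bladders and 6.78 to 7.19 in control bladders. In tumors this shared row ran from 6.08 in tumor 1 to 9.81 in tumor 6, the same lowest and highest tumors as for Pdgfrb, and the other 5 tumors lay at 6.75 to 7.13.

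The surface markers FAP and THY1 had the smallest ranges. Fap was at 5.33 in the treated metastasis, at 5.84, 5.70, 5.52 and 5.11 in metastases and at 5.28, 5.07 and 5.45 in treated bladders. Tumors ran from 4.95 in tumor 7 over a median of 5.34 to 5.51 in tumor 6, and control bladders had 4.96, 4.87, 5.33, 5.61 and 5.39. Metastases 1, 2 and 3 were above all 7 tumors, and metastasis 4 was inside the tumor range. Metastasis 3 exceeded tumor 6 only narrowly, at 5.516 against 5.512. The Fap values, 4.87 to 5.84, lay around the array medians of 5.07 to 5.42, and the filter on dim genes dropped Fap.

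Thy1 was at 5.60 in the treated metastasis, at 5.55, 5.21, 5.10 and 5.73 in metastases and at 5.55, 5.74 and 5.37 in treated bladders. Tumors ran from 5.37 in tumor 6 over a median of 5.44 to 5.99 in tumor 3, and control bladders had 6.17, 5.68, 5.37, 5.74 and 5.34. All groups overlapped. The mean of 4 T cell markers lay at 5.09 to 5.55 over all arrays, and its part in the Thy1 values was not tested.

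The matrix genes were among the most variable on the arrays. Over the 12 arrays outside the near-mean set, the span of Postn exceeded that of 99.9% of all genes, Dcn that of 99.7%, and Lum and Bgn that of 99.6% each. Fbln1 and Sparc exceeded 94.1% and 93.3%, Pdgfrb 81.5%, Fap 60.7% and Thy1 59.2%. The median span over all genes was 0.84 log2 units. Chemosensory receptor genes (odorant, vomeronasal and bitter taste receptors), 1561 genes with no known role as stroma markers, had a median span of 1.07 and a 95th percentile of 1.65, so the spans of Fap (0.98), Thy1 (0.96) and Pdgfrb (1.38) were within the range that such genes show.

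Single arrays stood apart across several of the 9 genes at once. Tumor 6 was the highest array for 4 genes and lay on average 1.29 log2 units above each gene's own mean. Tumor 1 was the lowest array for 5 genes, with an average deviation of -1.31 and 8 of 9 genes below their mean. Treated bladder 1 had all 9 genes below their mean, averaging -0.69, while treated bladder 2 averaged 0.39. Control bladders 1 and 2 averaged 0.70 and 0.42, and the near-mean arrays lay between -0.22 and 0.04.

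**Figure D2:**
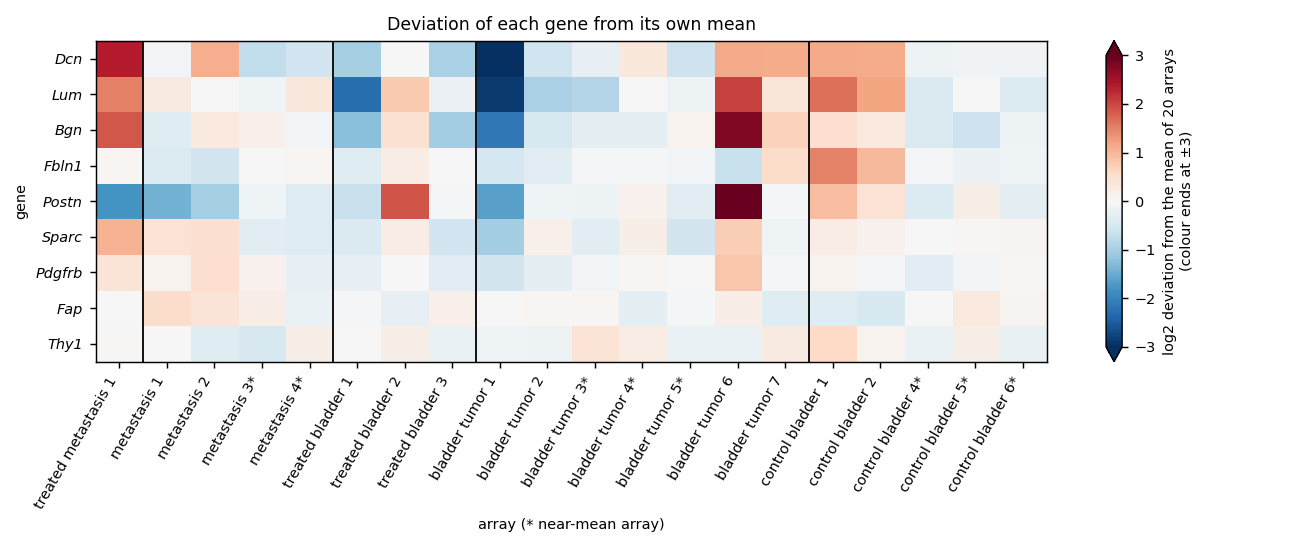
Deviation of each gene (rows) from its own mean over the 20 arrays, in log2 units, for every array (columns, in the group order treated metastasis, metastasis, treated bladder, bladder tumor, control bladder). Tumor 6 averages 1.29 above and tumor 1 1.31 below the gene means, while the near-mean arrays are pale throughout, averaging -0.22 to 0.04.

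Over the 12 other arrays the proteoglycans varied together. Dcn and Lum correlated at Pearson r = 0.86 and Spearman rho = 0.94 (n = 12, permutation p = 0.00017, 0.0018 after Benjamini-Hochberg adjustment over 36 pairs), and r was 0.76 without the 2 arrays farthest from the Dcn median. Lum and Bgn (r = 0.87), Dcn and Bgn (r = 0.86) and Bgn and Pdgfrb (r = 0.88) went the same way. Fbln1 and Thy1 formed another pair at r = 0.87, while Fbln1 ran opposite to Fap at r = -0.80. In all, 28 of 36 pairs were positive and 13 passed the adjustment. The share of pairs of other genes that pass over these 12 arrays was not computed, so the counts cannot be read as particular to these genes. The 12 arrays pool all groups, and each had another array with which it correlated. The permutations treat the arrays as exchangeable, so these p-values can be too small and the count that passed too high. In the 8 near-mean arrays the relations named above were weaker or reversed: r was -0.15 for Dcn and Lum, 0.16 for Lum and Bgn, -0.67 for Dcn and Bgn, 0.46 for Bgn and Pdgfrb, -0.03 for Fbln1 and Thy1, and -0.46 for Fbln1 and Fap. Dcn and Sparc, at r = 0.85 over the 12 arrays, did not weaken, with r = 0.87 in the near-mean arrays. Bgn and Sparc went from 0.86 to -0.65.

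The same arrays differed in a measure made of genes that do not mark fibroblasts. The mean level of the chemosensory receptor genes was highest in tumor 1, at 5.26, and lowest in the treated metastasis and tumor 6, at 4.62 and 4.64. Over the 12 arrays it ran opposite to Sparc at r = -0.92 and rho = -0.89 (permutation p = 1e-05, the smallest the permutations can give, and 9e-05 adjusted over 9 genes), and without the 2 farthest arrays r was -0.84. Bgn followed at -0.86, Lum at -0.84, Dcn at -0.82 and Pdgfrb at -0.81, whereas Fbln1 (-0.15), Postn (-0.34), Fap (-0.09) and Thy1 (-0.25) did not pass. In the 8 near-mean arrays the relation was not uniform: r was -0.43 for Sparc and -0.47 for Dcn, 0.0019 for Lum, 0.53 for Pdgfrb and 0.82 for Bgn. The permutation p-values here carry the limit given above for the pairs of genes. With this mean as a covariate no gene of the 9 was called.

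**Figure D3:**
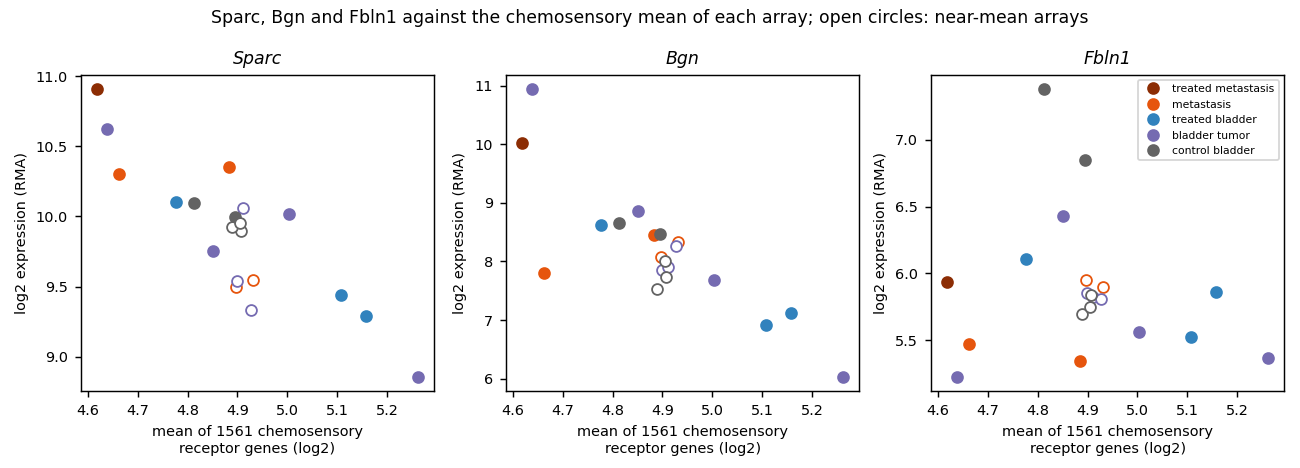
Log2 expression of Sparc, Bgn and Fbln1 (vertical axes) against the mean log2 level of the chemosensory receptor genes (horizontal axes) in each array, coloured by group in the order treated metastasis, metastasis, treated bladder, bladder tumor and control bladder, with open circles for near-mean arrays. Sparc and Bgn fall along the axis (r = -0.92 and -0.86 over the 12 filled points) and Fbln1 does not follow it (r = -0.15).

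The genes outside the 9 whose pattern over the 12 arrays was most like the mean of the 9 were Ryk, Ube2b, Foxp1 and Cd248, each at r = 0.96, and Rnf214 at 0.95. All 5 were lowest in tumor 1 and highest in tumor 6. In the 8 near-mean arrays their r ran from -0.60 for Cd248 to 0.57 for Ube2b. Cd248 encodes endosialin, a surface protein of fibroblasts and pericytes.

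Bladder tumors were compared with control bladders to ask what tumor growth changed. None of the 9 genes passed limma's moderated test at an adjusted p under 0.05, and neither did any of the 30142 genes, so the share of genes called was 0%. Before adjustment 1 of 9 passed, beside 4.28% of all genes, and no gene of the 9 had groups that did not overlap, beside 0.179% of all genes. The 9 split into 4 higher and 5 lower, with a median difference of -0.05, against 0.01 over all genes. That split rested on tumor 6: without it all 9 genes were lower, with a median of -0.38. Fbln1 differed by -0.58 (SE 0.27, 95% interval -1.15 to -0.01, unadjusted p = 0.0477, limma adjusted p = 0.999), averaging 5.72 ± 0.40 in tumors and 6.30 ± 0.77 in control bladders (SD, n = 7 and 5). Lum differed by -0.76 (interval -2.13 to 0.62) and Dcn by -0.64 (interval -1.83 to 0.54). Without tumor 1 the Lum difference was -0.34 and the Dcn difference -0.19. Without the near-mean arrays they were -1.78 for Lum and -1.47 for Dcn, and within those arrays -0.06 and -0.05. The Fbln1 difference followed the array set: it was -1.47 without the near-mean arrays (limma adjusted p = 0.987), which leaves control bladders 1 and 2, and 0.06 within the near-mean arrays. Without control bladder 1 alone it was -0.31.

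Treated bladders were compared with untreated tumors to ask what CM272 with cisplatin changed. Of the 9 genes, 3 were higher and 6 lower, the median difference was -0.13, against -0.00 over all genes, and none passed with or without adjustment. Over all genes 0% passed after adjustment and 0.488% before it. No gene of the 9 separated the groups, beside 0.166% of all genes. Bgn differed by -0.67 (SE 0.66, interval -2.05 to 0.71), averaging 7.55 ± 0.94 in treated bladders and 8.22 ± 1.48 in tumors (SD, n = 3 and 7). Dcn differed by -0.39 (interval -1.79 to 1.01) and Lum by -0.20 (interval -1.81 to 1.42), so both intervals reach past a log2 unit in either direction. Single arrays moved these values both ways. Without tumor 6 the Bgn difference was -0.22 and the Lum difference 0.20. Without treated bladder 2 Bgn differed by -1.21, with a median over the 9 genes of -0.38, and without tumor 1 Dcn differed by -0.84. Without the near-mean arrays, which here include tumors only, Bgn differed by -0.83, Dcn by -0.32 and Lum by -0.19. The median over the 9 genes was then -0.19. Tissue markers differed as well over all arrays, though none passed before adjustment. Urothelium markers were higher in treated bladders for 9 of 9 (median 0.69), and smooth muscle markers for 9 with 1 lower (median 0.55). Endothelium markers were higher for 6 of 6 and macrophage markers lower for 6 of 6. Array means of the urothelium markers were 7.12 to 8.22 in treated bladders and 5.57 to 10.2 in tumors. The part of these tissues in the values of the 9 genes was not tested.

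Set against control bladders, treated bladders were lower for 7 of 9 genes and higher for 2, with a median difference of -0.36, against 0.01 over all genes. None passed with or without adjustment, beside 0% and 0.763% of all genes, and none separated the groups, beside 1.19% of all genes. Dcn differed by -1.03 (SE 0.71, interval -2.52 to 0.45), Lum by -0.95 (interval -2.66 to 0.76) and Bgn by -0.53 (interval -1.99 to 0.93). Single treated bladders moved these values both ways. Without treated bladder 1, low for Lum at 5.74, the Lum difference was -0.10 and the Bgn difference -0.21, and without treated bladder 2 they were -1.62 and -1.07, with a median over the 9 genes of -0.61. Without the near-mean arrays, which here include control bladders only, Dcn differed by -1.78, Lum by -1.97 and Bgn by -1.02. Fbln1 differed by -1.28 there (limma unadjusted p = 0.0038), against control bladders 1 and 2 alone. It was the 1 gene of the 9 that passed before adjustment, beside 1.45% of all genes, and it did not pass after it. Dcn stayed between -1.36 and -0.84 over all fits that left out 1 array.

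Metastases were compared with bladder tumors, and 5 of 9 genes were higher and 4 lower, with a median difference of 0.13, against -0.03 over all genes. None passed with or without adjustment, beside 0% and 6% of all genes, and none separated the groups, beside 0.514%. Postn differed by -1.11 (SE 0.82, interval -2.82 to 0.61, limma adjusted p = 0.856) and, without tumor 6, by -0.38. Without the near-mean arrays the Postn difference was -1.95, and within them it was -0.14. Fap differed by 0.29 (SE 0.16, interval -0.05 to 0.62, limma adjusted p = 0.844), averaging 5.54 ± 0.32 in metastases and 5.26 ± 0.20 in tumors (SD, n = 4 and 7). Without the near-mean arrays Fap differed by 0.48 (limma unadjusted p = 0.0236, adjusted p = 0.852). It was the 1 gene of the 9 that passed before adjustment there, beside 5.46% of all genes. Among the near-mean arrays Fap was at 5.52 and 5.11 in metastases and at 5.36, 5.03 and 5.25 in tumors. Lum differed by 0.48 (SE 0.70, limma adjusted p = 0.931) and, without tumor 1, by 0.06.

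Against control bladders, metastases were higher for 3 genes and lower for 6, with a median difference of -0.26, against -0.01 over all genes. Again none passed with or without adjustment, beside 0% and 7.12% of all genes, and none separated the groups, beside 2.95%. Postn differed by -0.91 (SE 0.87, limma adjusted p = 0.838), Fbln1 by -0.64 (SE 0.31, interval -1.30 to 0.02, limma adjusted p = 0.707) and Dcn by -0.45 (SE 0.65, limma adjusted p = 0.910). Leaving out the near-mean arrays sets metastases 1 and 2 against control bladders 1 and 2. Those control bladders are the arrays with high Xist, so group and Xist level cannot be told apart there. Postn differed by -1.89 without the near-mean arrays and by -0.09 within them. For Fbln1 the difference was -1.71 without the near-mean arrays (limma adjusted p = 0.302) and 0.16 within them. Fap, not among the largest differences over all arrays, differed by 0.86 without the near-mean arrays (limma adjusted p = 0.36) and by -0.13 within them. Macrophage markers were higher in metastases for 6 of 6 genes, with array means of 5.96 to 7.75 in metastases and 5.20 to 6.22 in control bladders, and their part in these values was not tested. In the near-mean arrays alone those means were 5.99 and 5.96 in metastases and 6.04 to 6.22 in control bladders. The tumor and control groups are shared between several of these comparisons, so their differences are not independent.

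**Figure D4:**
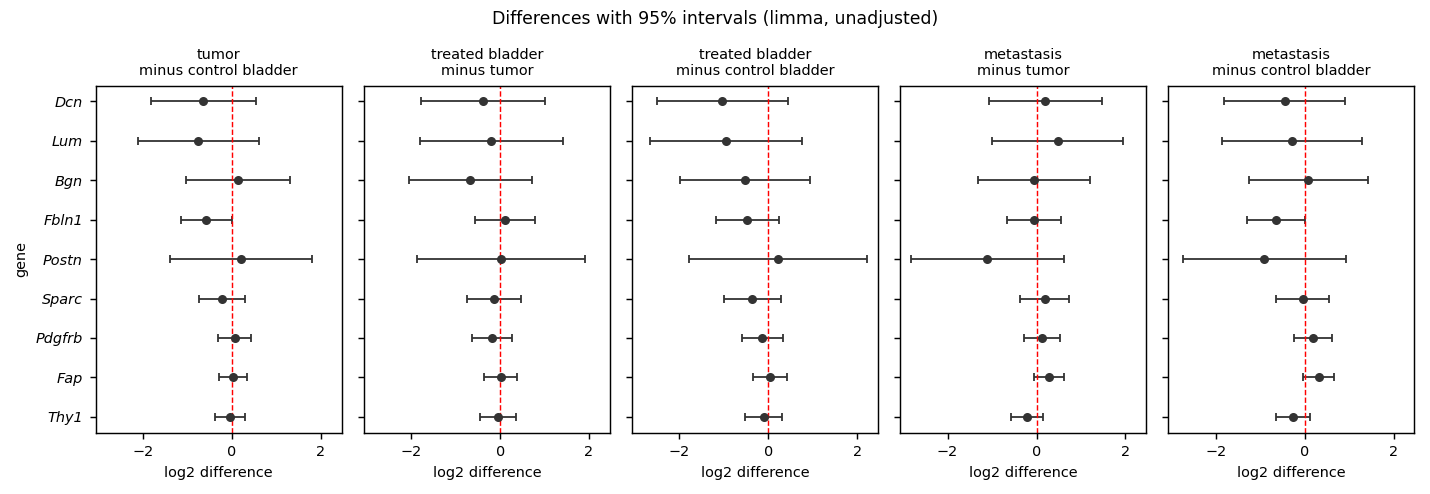
Log2 difference (horizontal axis) with its 95% interval for each of the 9 genes in the 5 comparisons, the first-named group minus the second. The interval of Fbln1 in tumors minus control bladders, -1.15 to -0.01, is the only interval that does not include 0, and Postn has the widest.

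The single treated metastasis lay above all 4 untreated metastases for Dcn, Lum, Bgn and Sparc and below them for Postn, and it was inside their range for Fbln1, Pdgfrb, Fap and Thy1. Its distance from the mean of the metastases was 2.42 for Dcn, 1.86 for Bgn, 1.39 for Lum, 0.98 for Sparc and -1.06 for Postn. Over all genes, 14.4% lay above and 19.1% below all 4 metastases. With 1 array these values have no replicate check. Among 21 other fibroblast markers 13 were above all 4 metastases and 2 below, and among 14 other proteoglycans 6 were above and 1 below. Markers of other tissues moved beside them: of 4 mesothelium markers 2 were above all 4 metastases, of 9 urothelium markers 5 were below, of 6 endothelium markers 5 were below, of 7 pericyte markers 4 were below, and of 10 smooth muscle markers 7 were below and 1 above. The mean of the mesothelium markers was 7.23 in the treated metastasis and reached 7.22 in metastasis 2. The part of these tissues in the Dcn and Bgn values was not tested.

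Other matrix and fibroblast genes were described by the same comparisons. No gene of any list passed limma's adjusted test in any of the 5 comparisons. All 21 other fibroblast markers were lower in treated bladders than in control bladders, with a median difference of -0.24 and none passing before adjustment. By array, the mean of these markers was 5.98, 6.26 and 6.05 in treated bladders, against 6.65 and 6.48 in control bladders 1 and 2 and 6.22 to 6.25 in control bladders 4, 5 and 6, so treated bladder 2 was above the near-mean controls. The largest belonged to Cd34, a surface sialomucin of fibroblasts, endothelium and progenitor cells (-0.66, SE 0.32), Dpt, which encodes the matrix protein dermatopontin (-0.59, SE 0.54), and Fstl1, a secreted glycoprotein (-0.51, SE 0.52). Of 14 other proteoglycans 4 were higher and 10 lower there, and of 19 other matrix glycoproteins 4 were higher and 15 lower, with medians of -0.09 and -0.13. Among them, osteoglycin (Ogn) differed by -0.85 (SE 0.61), Prelp by -0.72 (SE 0.61) and asporin (Aspn) by -0.56 (SE 0.56), and the fibulin family gene Efemp1 differed by -0.88 (SE 0.72). In tumors against control bladders the fibroblast markers split into 7 higher and 14 lower. Of 10 TGF-beta ligands, receptors and latency proteins, which act upstream of many matrix genes, 7 were higher and 3 lower in metastases than in tumors, with a median of 0.20 and 2 passing before adjustment, beside 6% of all genes. Within the near-mean arrays the list's mean level was 6.55 and 6.27 in metastases and 6.33 to 6.43 in tumors. The 2 were Tgfb2, at 6.32 ± 0.60 in metastases and 5.77 ± 0.27 in tumors (SD, n = 4 and 7, limma adjusted p = 0.825), and Tgfb1, at 6.66 ± 0.48 in metastases and 6.21 ± 0.34 in tumors (limma adjusted p = 0.825). The 4 PDGF ligands split into 1 higher and 3 lower in that comparison, and none passed. Beside these, 10 of 10 smooth muscle markers were lower in tumors than in control bladders, with a median of -0.62, and none passed. Acta2, the smooth muscle actin that activated fibroblasts express as well, was at 7.73 ± 2.09 in tumors and 9.20 ± 1.66 in control bladders (SD, n = 7 and 5, limma adjusted p = 0.999). Within the near-mean arrays the smooth muscle mean was 6.42 to 6.55 in tumors and 6.55 to 6.62 in control bladders. Their part in the matrix gene values was not tested.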

How the data were processed

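RNA from formalin-fixed, paraffin-embedded tissue was hybridised to whole-transcript arrays, per the labels' protocols. The authors deposited log2 expression values, which the submitters' processing notes credit to RMA and Affymetrix Expression Console, with versions not given in the sources used here. The table holds 65956 rows and 20 arrays. Array medians were 5.07 to 5.42, and the number of arrays limits the precision. Of the rows, 30604 list 1 gene symbol, 2146 several and 33206 none in the platform annotation. Symbols were updated for 827 rows through the GRCm38.p6 gene table. The row with the highest mean was kept for each of 30142 genes, of which 355 had several rows.

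Groups came from the sample labels. The 19 arrays of the 4 replicated groups were fitted together in limma 3.58.1 (R 4.3.3) with two-sided tests and Benjamini-Hochberg adjustment over all genes. Correlations used two-sided permutation tests. The limma fit was tried on simulated data for tumors minus control bladders only, with noise drawn independently for each array. No pair of arrays was identical. Promoter sequences came from RefSeq, and the table held promoters of 5 of the 10 genes. By the rule for named genes, all 10 genes are described, the 3 with the largest absolute difference are given per comparison, up to 3 come from each other list, Rb1 and Rbl1 are named, and so are the 5 genes most correlated with the mean of the 9. Fap in metastases minus control bladders and Fbln1 in treated bladders minus control bladders were named after their values were seen. Alternatives varied the samples, prior, normalization, filter, rows, covariates, weights, replicate block and each array left out. The genes and lists were chosen with earlier results of these data known. Other engineered alleles are not reported here.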

Additional observations from a re-analysis of the deposited data

Results flagged for a closer look

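Dcn in tumor 1 was at 5.87, far below the other 6 tumors, the nearest of which was at 8.25, a gap of 0.575 of the range of the group. Postn in tumor 6 was at 12.91, far above the nearest other tumor at 8.29, a gap of 0.724 of the range. These were 2 of 27 combinations of a gene and a group examined for an array far from the others, and chance marks about 1 in 20.

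Pdgfrb was 0.28 higher in the treated metastasis than the mean of the metastases, while treated bladders differed from tumors by a mean of -0.19, with all 3 treated bladders below the tumor mean. Tumor 6, at 7.07, raised that mean: the other 6 tumors averaged 6.09, which lies below treated bladder 2 at 6.22. The difference between these effects was not tested, and the first rests on 1 array.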

How the results depend on the processing

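None of the 9 genes passed the adjusted test wherever it was tested in the 12 other settings or the 19 fits that left out 1 array. With dim genes dropped 8 of the 9 were tested, without Fap. The near-mean arrays alone hold no treated bladder, so comparisons with treated bladders were not fitted there. Of 15 named differences, Lum in treated bladders minus tumors changed sign to 0.18 with a replicate block, to 0.35 with the chemosensory receptor mean as a covariate, and ran from -0.86 to 0.66 when 1 array was left out. That covariate also turned Dcn in treated bladders minus tumors to 0.059, Bgn in treated bladders minus control bladders to 0.21 and Lum in metastases minus tumors to -0.061. Within the near-mean arrays, chosen after seeing the data, Fbln1 was 0.064 in tumors minus control bladders and 0.16 in metastases minus control bladders. The median of the 9 genes was 0.02 in treated bladders minus tumors without tumor 6 and -0.12 in metastases minus tumors without tumor 1. With the covariate that median was 0.06 in treated bladders minus tumors and -0.10 in metastases minus tumors. Within the near-mean arrays it was 0.05 in tumors minus control bladders and -0.05 in metastases minus tumors. The count of genes outside the untreated metastases in the treated metastasis was 8 without the near-mean arrays and 5 to 8 when 1 metastasis was left out, with fewer arrays to compare against. The share over all genes was not computed for those settings, so these counts cannot be set beside it. Over all genes, calls numbered 0 in each comparison but, in metastases minus tumors, 4 without the near-mean arrays, 2 with array weights, 2 with dim genes dropped and 1 with the covariate. There were, in metastases minus control bladders 5 without the near-mean arrays, 3 with the covariate and 1 with only the 2 groups fitted. Without the near-mean arrays 1 gene was called in each of tumors and treated bladders minus control bladders, and leaving out 1 array gave 0 to 2. With array weights 5 of the 9 genes passed before adjustment in treated bladders minus control bladders, against 0 without weights, beside 6.41% and 0.763% of all genes. In metastases minus control bladders 3 passed with array weights and 3 without the near-mean arrays, beside 12.9% and 7.44% of all genes. In tumors minus control bladders 2 passed with array weights and 2 with quantile normalization once more, beside 10.4% and 5.26%. The labels do not state that their numbers pair the samples. Correlations of same-numbered samples ran from -0.51 to 0.44, but differently numbered samples were not set beside them, so they cannot decide it. The replicate block called none of the 9 genes. The causes were not tested.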

Other observations

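Macrophage and mesothelium markers had higher means in metastases than in control bladders over all arrays. Of 6 macrophage markers all 6 were higher, led by the complement genes C1qb at 1.70 and C1qa at 1.06, with a median difference of 0.77, and all 6 passed before adjustment, beside 7.12% of all genes, and none after it in limma. Of 4 mesothelium markers all 4 were higher, among them Lrrn4 by 1.32 and Wt1 by 1.10, with a median of 0.67, and 2 passed before adjustment. Urothelium markers were lower for 9 of 9, the uroplakin genes Upk1a and Upk3a by differences of -2.79 and -2.06, with a median of -1.11, and 1 passed before adjustment. These differences came with metastases 1 and 2 and control bladders 1 and 2. Within the near-mean arrays the macrophage mean was 5.99 and 5.96 in metastases and 6.04 to 6.22 in control bladders, the mesothelium mean 5.69 and 5.54 in metastases and 5.57 to 5.70 in control bladders, and the urothelium mean 6.96 and 6.98 in metastases and 6.90 to 7.10 in control bladders.

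The Dcn values of 5 arrays lay within 0.05 of 10, between 9.98 and 10.01, in a gene whose values otherwise spread over 5.36 log2 units. They came from metastasis 2, tumors 6 and 7 and control bladders 1 and 2. None is a near-mean array, and the highest near-mean value of Dcn was 9.21. The window was set for Dcn around values already seen, so the cluster cannot be weighed against chance.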
